A study of Mus musculus with 3 samples.

Results

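The goblet cell mucins and mucus partners are 10 genes: the gel-forming mucins Muc5ac and Muc5b, the mucus proteins Clca1, Fcgbp and Itln1, the trefoil peptides Tff1 and Tff2, the mucin-folding enzyme Agr2 and the transcription factors Spdef and Foxa3. They were taken by gene symbol, by a rule with no threshold on a measured value, and all 10 were found among the 23183 genes of each deposited table. RNA of lung homogenates from female BALB/c mice was sequenced in 3 libraries, 1 per group. The OVA+PM10 library came from mice given PM10, a certified reference dust, and also sensitised to and challenged with OVA (ovalbumin, the egg-white allergen of mouse asthma models). The PM10 library came from mice given the dust without OVA, and the control library from mice whose labels say control and name no vehicle. PM10 went into the nose 4 times over 2 weeks in 20 µL of saline, at 100 or 200 µg. OVA was injected into the abdomen at 20 µg with aluminium hydroxide as adjuvant, the second dose on day 14, and was given into the nose at 1 mg/mL in 30 µL on days 21, 22 and 23, with tissue taken 2 days later. The labels give 5 mice per group and an age of 10 weeks, or of 5 to 6 weeks in another field. They state neither which dose was sequenced nor how many mice went into a library, and a group given OVA without PM10 was not analysed here. With 1 library per group there is no replicate error and no test, so that every difference below is between libraries.

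Goblet cells are the mucus-filled secretory cells of the airway surface. They package very large gel-forming mucins into granules together with smaller proteins, and the released mixture swells into the gel that cilia carry out of the lung. In mouse airways Muc5b is the mucin made at rest, largely by club cells, whereas Muc5ac is known for its induction in allergic airways, where interleukin-13 acts through STAT6 and the transcription factors SPDEF and FOXA3 take part in turning secretory cells into goblet cells.

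Levels are in FPKM, counts of fragments or reads divided by transcript length and by every 1000000 mapped, so that levels can be compared between genes per length. Judged by the smallest steps in the tables, the OVA+PM10, PM10 and control libraries held about 15.2, 13.1 and 20.3 times 1000000 reads, and 1 read in a transcript of 1 kilobase was worth about 0.0656, 0.0763 and 0.0492 FPKM. Approximate read numbers below come from these steps and the longest coding transcript of each gene, and carry no interval because the authors' gene lengths are not known. A log2 ratio is that of FPKM + 1, which understates the change of low genes, and a gene was counted as higher or lower when this ratio reached 2-fold and the higher of the pair had 1 FPKM or more. The libraries were checked against lung markers: Sftpc of alveolar type 2 cells stood at 24439, 56646 and 22645 FPKM and Scgb1a1 of club cells at 65013, 50391 and 42979 FPKM in the OVA+PM10, PM10 and control libraries. Over 14 genes of squamous epithelium the sums were 6.07 FPKM with OVA+PM10, 2.94 FPKM with PM10 and 6151 FPKM in control.

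The structure of the mucin transcripts bears on how well they can be counted, so the most frequent 24-base word of each is shown. These words were picked by number of copies alone. Whether they are repeat units or lie in the stretches that carry sugars was not tested. Mucins carry long stretches that are heavily decorated with sugars, and these are encoded by repeated sequence. In the longest coding transcript of Muc5ac (10752 bases, GENCODE M21), 23.2% of all 50-base words occurred more than once within the transcript, and in that of Muc5b (14964 bases) 21.9%. The 24-base words with the most copies in the coding part, written 5′ to 3′ on the coding strand and without capitals, occurred 24 times in Muc5ac and 6 times in Muc5b:
Muc5ac: accagctcacccaatacaggaaag
Muc5b: aaaaaatctgtgagaagcctcagg
The other 8 members held no repeated 50-base word. No 50-base word of Muc5ac, Muc5b, Clca1, Tff2, Agr2, Spdef or Foxa3 occurred in a transcript of another gene, whereas 8.55% of those of Fcgbp also occurred in its neighbour 9530053A07Rik, 1.01% of those of Itln1 in the pseudogene Gm9765, and 19.3% of those of Tff1 in the antisense gene Gm15318, which overlaps it. How the authors treated reads that match several places or the opposite strand is not stated in the labels, so the values of these 5 genes are less certain.

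All 10 genes were far higher in the OVA+PM10 library than in both others, where none exceeded 5.60 FPKM. Summed, they had 6585 FPKM with OVA+PM10, 15.0 FPKM with PM10 and 13.6 FPKM in control, or 0.770%, 0.00116% and 0.00249% of all FPKM. All 10 reached 1 FPKM in the OVA+PM10 library, 4 did so in the PM10 library (Clca1, Tff1, Tff2 and Spdef) and 3 in the control library (Muc5b, Tff2 and Agr2). In tissue homogenate, a larger number of goblet cells and more of these RNAs per cell cannot be told apart.

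**Figure D1:**
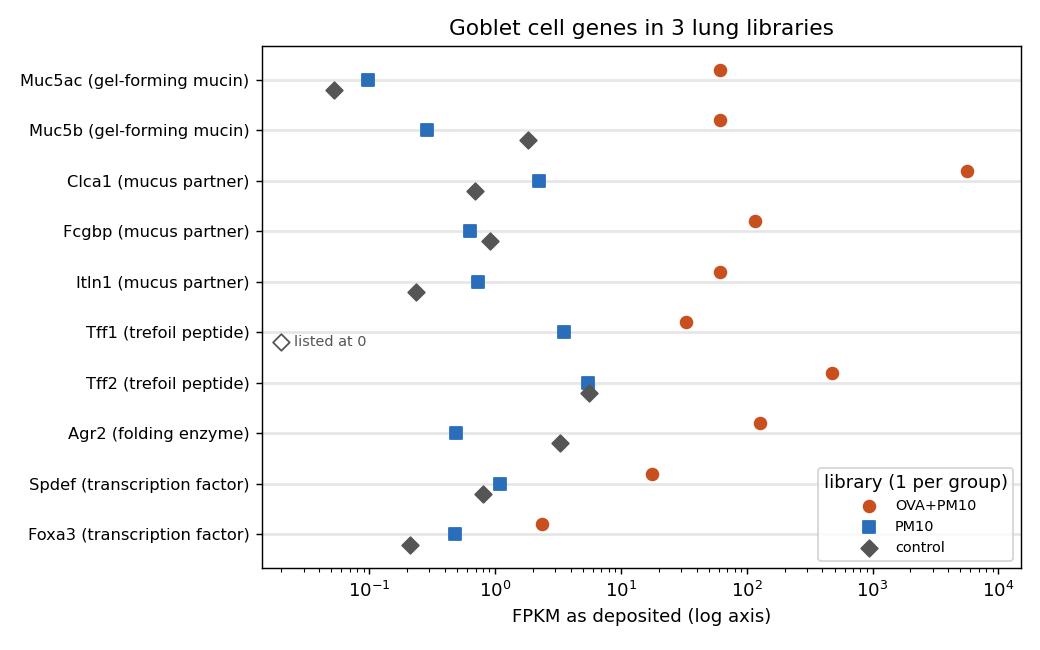
FPKM of each gene in the OVA+PM10, PM10 and control libraries (log axis, 1 library per group, no error bars possible); the open symbol marks Tff1, listed at 0 in the control library. Every OVA+PM10 value lies to the right of both others, with Clca1 at 5628 FPKM and Foxa3 at 2.34 FPKM as the extremes.

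The first comparison asked how lungs exposed to allergen and particles differed from control lungs. The gel-forming mucins, which build the polymer network of mucus, stood at nearly equal levels per length in the OVA+PM10 library. Muc5ac (chromosome 7, 141788972 to 141819231, plus strand, GRCm38/mm10) stood at 61.8 FPKM with OVA+PM10, 0.052 FPKM in control, where the control value rests on about 11.4 reads. Muc5b (chromosome 7, 141839070 to 141873084, plus strand), the next gene downstream, stood at 61.5 FPKM with OVA+PM10, 1.84 FPKM in control. The log2 ratio was 5.90 for Muc5ac and 4.46 for Muc5b. Muc5b was the one already above 1 FPKM in control, and the Muc5ac level divided by the Muc5b level was 1.005 in the OVA+PM10 library and 0.0282 in the control library.

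Among the mucus partners Clca1 stood far above all other members. Clca1 (chromosome 3, 145003817 to 145032776, minus strand), a secreted metalloprotease of mucus that also regulates a calcium-activated chloride channel, stood at 5628 FPKM with OVA+PM10, 0.695 FPKM in control, the highest log2 ratio of all 13877 genes with at least 1 FPKM in either (11.70). By level it ranked 18 among all genes with OVA+PM10 and 13803 in control, and it made up 85.5% of the summed FPKM of the 10 genes with OVA+PM10 and 5.11% in control. Fcgbp (chromosome 7, 28071236 to 28120862, plus strand), a large protein of mucus with domains like those by which mucins link to each other, stood at 116 FPKM with OVA+PM10, 0.912 FPKM in control. Itln1 (chromosome 1, 171518122 to 171535294, minus strand), a lectin that binds microbial sugars, stood at 61.7 FPKM with OVA+PM10, 0.233 FPKM in control, where the control value rests on about 5.40 reads. Its close paralog Itlnb was not matched in the tables, so reads of it could not be told apart from those of Itln1.

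The trefoil peptides, small secreted proteins that accompany mucins and take part in epithelial repair, differed from each other in level. Tff2 (chromosome 17, 31141049 to 31144282, minus strand) stood at 477 FPKM with OVA+PM10, 5.60 FPKM in control (log2 ratio 6.18). Tff1 (chromosome 17, 31161395 to 31165277, minus strand) stood at 33.03 FPKM with OVA+PM10 and was listed at 0 in control, where 1 read would be worth about 0.0700 FPKM, so no ratio is given.

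Agr2 (chromosome 12, 35992907 to 36004087, plus strand), a disulfide isomerase of the endoplasmic reticulum needed in mice for mucin production, stood at 127 FPKM with OVA+PM10, 3.25 FPKM in control (log2 ratio 4.91). With OVA+PM10 both transcription factors stood below the other 8 genes. Spdef (chromosome 17, 27714352 to 27728955, minus strand), an ETS-family factor of goblet cell differentiation, stood at 17.7 FPKM with OVA+PM10, 0.802 FPKM in control (log2 ratio 3.38). Foxa3 (chromosome 7, 19013284 to 19023538, minus strand), a forkhead factor that induces mucous genes in mouse airways, stood at 2.34 FPKM with OVA+PM10, 0.212 FPKM in control, or about 72.7 reads with OVA+PM10 and 8.77 in control. Its log2 ratio of 1.46 was the lowest of the 10, although 11.05-fold as a plain ratio of FPKM. The other plain ratios lay between 22.1-fold for Spdef and 8097-fold for Clca1, leaving out Tff1.

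By the rule of 2-fold, 10 of the 10 genes were higher with OVA+PM10 and none lower, against 9.95% of all genes higher and 8.68% lower. All passed the filter of 1 FPKM only through the OVA+PM10 library except Muc5b, Tff2 and Agr2. Ordered by log2 ratio among all 13877 genes, Clca1 ranked 1, Tff2 5, Fcgbp 7, Muc5ac 8, Itln1 9, Agr2 17, Muc5b 24, Spdef 39 and Foxa3 587. The median over the 10 genes was 5.38, or 5.67 without Tff1, against -0.0017 over all genes.

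The second comparison set allergen plus particles against particles alone. The OVA+PM10 library was again far higher for each gene. Clca1 stood at 5628 FPKM with OVA+PM10, 2.24 FPKM with PM10, the highest ratio of all 13556 genes tested here too. Agr2, lower with PM10 than in control, stood at 127 FPKM with OVA+PM10, 0.493 FPKM with PM10, a log2 ratio of 6.42. For Muc5b the levels were 61.5 FPKM with OVA+PM10, 0.285 FPKM with PM10, and the log2 ratio 5.60. These 2 genes thus differed more from the PM10 library than from control. Tff1 stood at 33.03 FPKM with OVA+PM10, 3.52 FPKM with PM10, a plain ratio of 9.39. Of the 10 genes only Foxa3, at 2.34 FPKM with OVA+PM10, 0.482 FPKM with PM10, had a smaller one (4.86). The 5 others ran between 16.2-fold for Spdef and 631-fold for Muc5ac. Again 10 of 10 genes were at least 2-fold higher, with 11.8% of all genes higher and 9% lower. All passed the filter of 1 FPKM only through the OVA+PM10 library except Clca1, Tff1, Tff2 and Spdef. The median log2 ratio over the 10 genes was 5.72, against -0.03 over all genes. The first 2 comparisons share the OVA+PM10 library, and the first and the third the control library, so they are not independent.

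**Figure D2:**
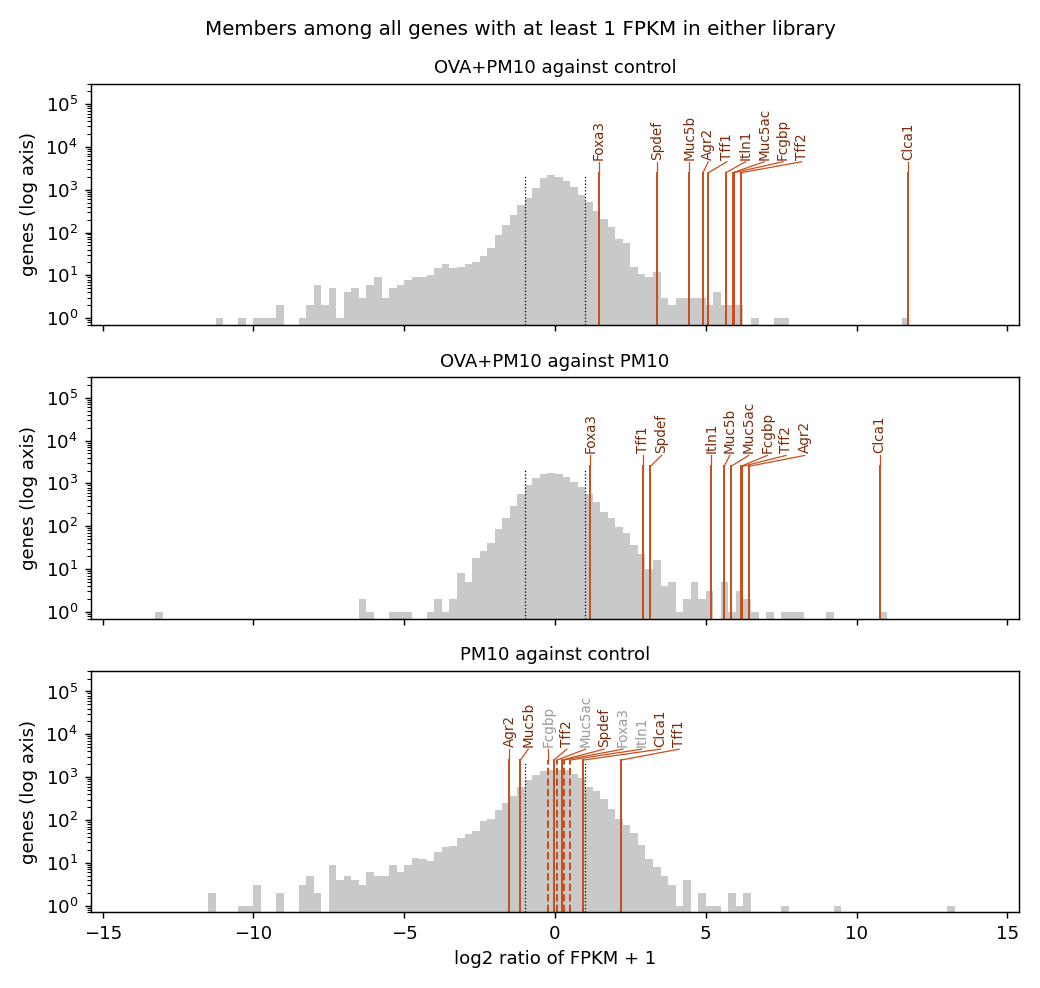
Number of genes (log axis) by log2 ratio of FPKM + 1 in each comparison, for genes with at least 1 FPKM in either library, with the 10 genes as orange lines and dotted lines at 2-fold. Dashed lines and grey names mark genes under 1 FPKM in both libraries, and Tff1 against control is drawn from FPKM + 1 although the control value is listed at 0. The 10 genes lie between 1.46 and 11.70 in the top panel and between -1.51 (Agr2) and 0.94 (Clca1) in the bottom panel, leaving out Tff1.

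The third comparison set particles alone against control, and the 10 genes had no common direction in it. Agr2 stood at 0.493 FPKM with PM10, 3.25 FPKM in control (log2 ratio -1.51), or about 5.06 reads with PM10 and 51.8 in control. Muc5b stood at 0.285 FPKM with PM10, 1.84 FPKM in control (-1.14), or about 55.9 reads with PM10 and 559 in control. As plain ratios of FPKM, PM10 over control was 0.152 for Agr2 and 0.155 for Muc5b. Tff1 went the other way, with 3.52 FPKM with PM10 (about 32.4 reads) and a control value listed at 0. These 2 lower genes and 1 higher gene compare with 13.9% of all genes lower and 13.6% higher, and with so few genes called the shares say little about the group.

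The remaining 7 genes stayed within 2-fold on the scale of FPKM + 1. Clca1 stood at 2.24 FPKM with PM10, 0.695 FPKM in control, 3.23-fold as a plain ratio but 0.94 on that scale. Tff2 stood at 5.44 FPKM with PM10, 5.60 FPKM in control. Spdef stood at 1.09 FPKM with PM10, 0.802 FPKM in control. Both lay close to their control levels. The other 4 were under 1 FPKM in both libraries: Muc5ac (0.098 FPKM with PM10, 0.052 FPKM in control), Fcgbp (0.633 FPKM with PM10, 0.912 FPKM in control), Itln1 (0.730 FPKM with PM10, 0.233 FPKM in control) and Foxa3 (0.482 FPKM with PM10, 0.212 FPKM in control). Of these, Muc5ac (about 13.8 reads with PM10, 11.4 in control), Itln1 (10.9 reads with PM10, 5.40 in control) and Foxa3 (12.9 reads with PM10, 8.77 in control) rest on few reads, and Fcgbp on more (65.8 reads with PM10, 147 in control). The median log2 ratio over the 10 genes was 0.14, or 0.06 without Tff1, against 0.02 over all genes.

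The differences of these genes between PM10 and control coincided with other differences between the libraries. Ratios between the PM10 and control libraries followed transcript length, and with that trend removed Muc5b, the longest of the transcripts, had a log2 ratio of -0.15, Agr2 one of -2.69 and Tff2 one of -1.37, and Tff1 was no longer counted as higher. The squamous genes (2.94 FPKM with PM10, 6151 FPKM in control), the secretory gene Bpifa1 (5.08 FPKM with PM10, 283 FPKM in control) and the basal keratin Krt15 (0.449 FPKM with PM10, 83.9 FPKM in control) differed in the same direction as Muc5b and Agr2. Of the 15 club and secretory markers, 2 were higher with PM10 than in control and 7 were lower. The higher ones were Scgb3a2 (3091 FPKM with PM10, 1086 FPKM in control) and Hp (1383 FPKM with PM10, 553 FPKM in control). The lower ones included Bpifa1 and Krt15, which was also on the list of basal cell markers. The part of all these genes in the result was not tested. Depth differed too, at about 13.1 times 1000000 reads with PM10 and 20.3 times 1000000 in control.

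Within each library the proportions of the group also differed. The Muc5ac level divided by the Muc5b level was 1.005 with OVA+PM10, 0.344 with PM10 and 0.0282 in control, with the last 2 values resting on few Muc5ac reads. For Clca1 over Muc5b the values were 91.5, 7.87 and 0.378. Agr2 over Muc5b was closer, at 2.06, 1.73 and 1.77, although the PM10 value rests on about 5.06 Agr2 reads. Tff2 was the most abundant of the 10 genes in the PM10 library (36.2% of their sum) and the control library (41.2%), and the second after Clca1 in the OVA+PM10 library (7.24%). Relative to Scgb1a1, the main secretory protein of club cells, Clca1 stood at 0.0866 with OVA+PM10, 4.45e-05 with PM10 and 1.62e-05 in control.

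Most genes of the same families that lie beside the members were at or near 0. Muc5ac and Muc5b lie 19838 bases apart on chromosome 7, and Muc2, the intestinal gel-forming mucin 34278 bases before Muc5ac, was at 0, 0.062 and 0.013 FPKM in the OVA+PM10, PM10 and control libraries. Tollip, 1728 bases beyond Muc5b on the other strand, had 17.1, 24.4 and 24.1 FPKM. On chromosome 17 Tff3 lies 11402 bases from Tff2 and was listed at 0 in all 3 libraries. Next to Clca1 on chromosome 3, Clca4a had 0, 0 and 0.031 FPKM and Clca2 0.331, 0.073 and 2.12 FPKM. Agr3, 43170 bases from Agr2, had 19.8, 17.6 and 4.36 FPKM, and so exceeded its control level by 2-fold or more with PM10 as well, where Agr2 was lower.

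Promoter windows from RefSeq (GRCm38.p6) were at hand for 5 of the 10 genes (Itln1, Foxa3, Fcgbp, Agr2 and Spdef), and not for Muc5ac, Muc5b, Clca1, Tff1 and Tff2. The 250 bases before the start were searched for 4 motifs: the STAT6 site (TTC and GAA with 4 bases between them), a forkhead site TNTTTAC and an ETS-family site AGGAAG on both strands, and TATAAA on the coding strand. Those of the 2 transcription factors and of Agr2 are shown because they are the regulators and the folding enzyme of the group. Each is written 5′ to 3′ on the gene's strand, with motif matches in capitals:
Spdef (chr17:27728952-27729201, minus strand): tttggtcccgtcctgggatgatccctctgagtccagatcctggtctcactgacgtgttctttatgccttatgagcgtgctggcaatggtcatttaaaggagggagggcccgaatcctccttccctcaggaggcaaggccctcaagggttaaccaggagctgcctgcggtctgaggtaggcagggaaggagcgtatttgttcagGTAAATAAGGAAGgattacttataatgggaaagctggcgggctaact
Foxa3 (chr7:19023540-19023789, minus strand): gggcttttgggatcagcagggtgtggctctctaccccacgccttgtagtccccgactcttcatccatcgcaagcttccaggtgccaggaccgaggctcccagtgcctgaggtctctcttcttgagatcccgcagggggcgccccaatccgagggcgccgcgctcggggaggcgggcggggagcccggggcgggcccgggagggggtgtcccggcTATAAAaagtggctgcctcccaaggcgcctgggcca
Agr2 (chr12:35992675-35992924, plus strand): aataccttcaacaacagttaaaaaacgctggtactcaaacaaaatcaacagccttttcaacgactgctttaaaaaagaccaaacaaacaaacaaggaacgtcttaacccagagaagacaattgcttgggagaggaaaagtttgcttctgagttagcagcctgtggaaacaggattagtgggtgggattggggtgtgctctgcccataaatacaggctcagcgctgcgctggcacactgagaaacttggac
The Spdef window held a forkhead match on the opposite strand at -47 to -41, counted from -1 at the last base before the start, directly followed by an ETS match at -40 to -35, without overlap. The forkhead site was in 10.9% and the ETS site in 29.5% of all 32851 windows. Foxa3 held TATAAA at -36 to -31 (7.59% of all windows), Fcgbp the ETS site at -96 to -91, and the windows of Agr2 and Itln1 none of the 4. The STAT6 site was in none of the 5 windows and in 5.85% of all. A match is a string of letters and does not show binding.

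Genes that serve mucus production were described from gene lists, by the same rule. Which cells of the homogenate their RNAs came from was not tested. In this and the following paragraphs, genes with at least 1 FPKM in either library of a comparison are called tested. Of all 13877 genes tested, 9.95% were higher with OVA+PM10 than in control and 8.68% lower. Of 13 genes of mucin folding and export, all tested, 6 were higher with OVA+PM10 than in control, and 0 were lower (median log2 ratio 0.93). Ern2, a stress sensor of the endoplasmic reticulum found in mucous cells, stood at 5.47 FPKM with OVA+PM10, 0.078 FPKM in control. The transcription factors Creb3l4 (10.4 FPKM with OVA+PM10, 1.19 FPKM in control), Bhlha15 (5.44 FPKM with OVA+PM10, 0.301 FPKM in control), Creb3l1 (32.8 FPKM with OVA+PM10, 7.96 FPKM in control) and Xbp1 (252 FPKM with OVA+PM10, 106 FPKM in control), which raise secretory capacity in various glands, were higher, as was the vesicle cargo receptor Tmed3 (101 FPKM with OVA+PM10, 46.1 FPKM in control). Of these, Tmed3 alone also exceeded its control level by 2-fold or more with PM10 (149 FPKM), while Ern1, a paralog of Ern2 (0.541 FPKM with PM10, 6.99 FPKM in control), and the coat protein gene Sec24d (5.10 FPKM with PM10, 11.98 FPKM in control) were lower with PM10 than in control.

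Most genes of granule release and of mucin glycosylation stayed within 2-fold. Of 15 genes of granule secretion, 14 of them tested, 1 was higher and 2 were lower with OVA+PM10 than in control (median -0.08). The higher one was Scin, which severs actin filaments, at 33.6 FPKM with OVA+PM10, 0.865 FPKM in control. The lower ones included the SNARE gene Vamp2 (12.9 FPKM with OVA+PM10, 26.9 FPKM in control). Of 24 glycosyltransferases and their partners, 18 of them tested, 3 were higher and none was lower (median 0.07). The shares over all genes tested were 9.95% and 8.68%. Gcnt3, which makes branched mucin sugar chains, stood at 2.70 FPKM with OVA+PM10, 0.021 FPKM in control. The others were Galnt12, which attaches the first sugar (9.77 FPKM with OVA+PM10, 2.02 FPKM in control), and the sialyltransferase St3gal4 (58.1 FPKM with OVA+PM10, 23.5 FPKM in control).

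Other mucins and the other members of these families showed no common pattern. Of 9 further mucins matched in the tables, 4 were tested. Muc4 (9.80 FPKM with OVA+PM10, 1.08 FPKM in control) and Muc1 (146 FPKM with OVA+PM10, 53.7 FPKM in control) were higher. Both are tethered to the cell surface. Muc15 (listed at 0 with OVA+PM10, 1.89 FPKM in control) was lower. Muc1 was high with PM10 too, at 198 FPKM. Of 10 further genes of the trefoil, CLCA, AGR and resistin-like families and Zg16, 3 were tested. Retnlb, a resistin-like peptide of goblet cells, had 14.2 FPKM with OVA+PM10 and was listed at 0 in both others. Agr3 was higher and Clca2 lower than in the control library, with values given above.

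The lists of genes upstream of the group differed in their counts. Over all genes tested, 9.95% were higher with OVA+PM10 than in control and 8.68% lower. Of 14 genes of interleukin-4 and interleukin-13 signalling, 13 of them tested, 4 were higher with OVA+PM10 than in control and 0 were lower (median 0.46). They were the cytokines Il4 (4.28 FPKM with OVA+PM10, 0.223 FPKM in control) and Il13 (2.13 FPKM with OVA+PM10, 0.130 FPKM in control) and the feedback inhibitors Socs1 (13.2 FPKM with OVA+PM10, 4.99 FPKM in control) and Cish (24.3 FPKM with OVA+PM10, 11.4 FPKM in control). Stat6 (28.7 FPKM with OVA+PM10, 34.2 FPKM in control) and the receptor chain Il4ra (18.2 FPKM with OVA+PM10, 24.4 FPKM in control) were within 2-fold. Of 20 other airway transcription factors and Notch pathway genes, 18 were tested, 2 were higher and 3 were lower. The higher ones were Elf3 (45.01 FPKM with OVA+PM10, 11.2 FPKM in control) and Sox2 (28.6 FPKM with OVA+PM10, 9.32 FPKM in control). Notch3 (4.86 FPKM with OVA+PM10, 12.7 FPKM in control) and Notch1 (8.30 FPKM with OVA+PM10, 18.4 FPKM in control) were lower. Etv5 was lower too (19.7 FPKM with OVA+PM10, 41.03 FPKM in control). Foxa2, which restrains goblet cell differentiation in mice, stood at 17.3 FPKM with OVA+PM10, 36.2 FPKM with PM10 and 13.4 FPKM in control. Of 11 genes of the EGF receptor system, another inducer of mucins, 7 were tested, none was higher and 2 were lower. The lower ones were Egf (0.013 FPKM with OVA+PM10, 1.79 FPKM in control) and Hbegf (4.55 FPKM with OVA+PM10, 11.04 FPKM in control).

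Of 22 other genes that interleukin-13 induces in airways of mice or people, 16 were tested. With OVA+PM10, 11 were higher and 1 was lower than in control (median 1.07). The highest ratios among them were those of Retnla (37463 FPKM with OVA+PM10, 245 FPKM in control), the anion exchanger Slc26a4 (43.8 FPKM with OVA+PM10, 0.374 FPKM in control), the eosinophil-associated ribonuclease Ear11, listed under its other symbol Rnase2a (489 FPKM with OVA+PM10, 16.04 FPKM in control), the calpain Capn9 (27.6 FPKM with OVA+PM10, 0.020 FPKM in control), the chitinase Chia1 (1924 FPKM with OVA+PM10, 71.6 FPKM in control) and Chil3 (2106 FPKM with OVA+PM10, 93.4 FPKM in control). With PM10 Slc26a4 (6.83 FPKM), Chil3 (641 FPKM) and Retnla (1611 FPKM) also exceeded their control levels by 2-fold or more, whereas Capn9, listed at 0, and Chia1, at 95.03 FPKM, did not, and Ear11 was lower than in control, at 4.66 FPKM. The gene lower with OVA+PM10 was Serpinb2 (1.58 FPKM with OVA+PM10, 4.63 FPKM in control).

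The same lists were read against PM10, by the same rule. Between OVA+PM10 and PM10, 11.8% of all genes tested were higher and 9% lower. Of 16 genes responsive to interleukin-13 that were tested, 14 were higher and 0 lower. Of 13 folding and export genes tested 6 were higher and 0 lower, and of 19 glycosylation genes tested 6 and 0. Of 18 transcription factors and Notch genes tested 6 were higher and 2 lower, of 13 signalling genes 3 and 0, and of 14 secretion genes 1 and 1. Of 5 EGF receptor genes tested 1 was higher and 1 lower, of 3 further mucins 1 and 0, and of 2 family genes 1 and 0. Between PM10 and control 13.6% of all genes tested were higher and 13.9% lower. Of 11 folding and export genes tested 1 was higher and 2 lower, of 17 glycosylation genes 0 and 3, and of 7 EGF receptor genes 0 and 4. Of 16 transcription factors and Notch genes tested 1 was higher and 3 lower, and of 14 genes responsive to interleukin-13, 4 and 5. The 12 signalling genes tested had 0 higher and 0 lower. Of 13 secretion genes, 4 further mucins and 2 family genes tested, 1 was higher and 1 lower in each list.

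**Figure D3:**
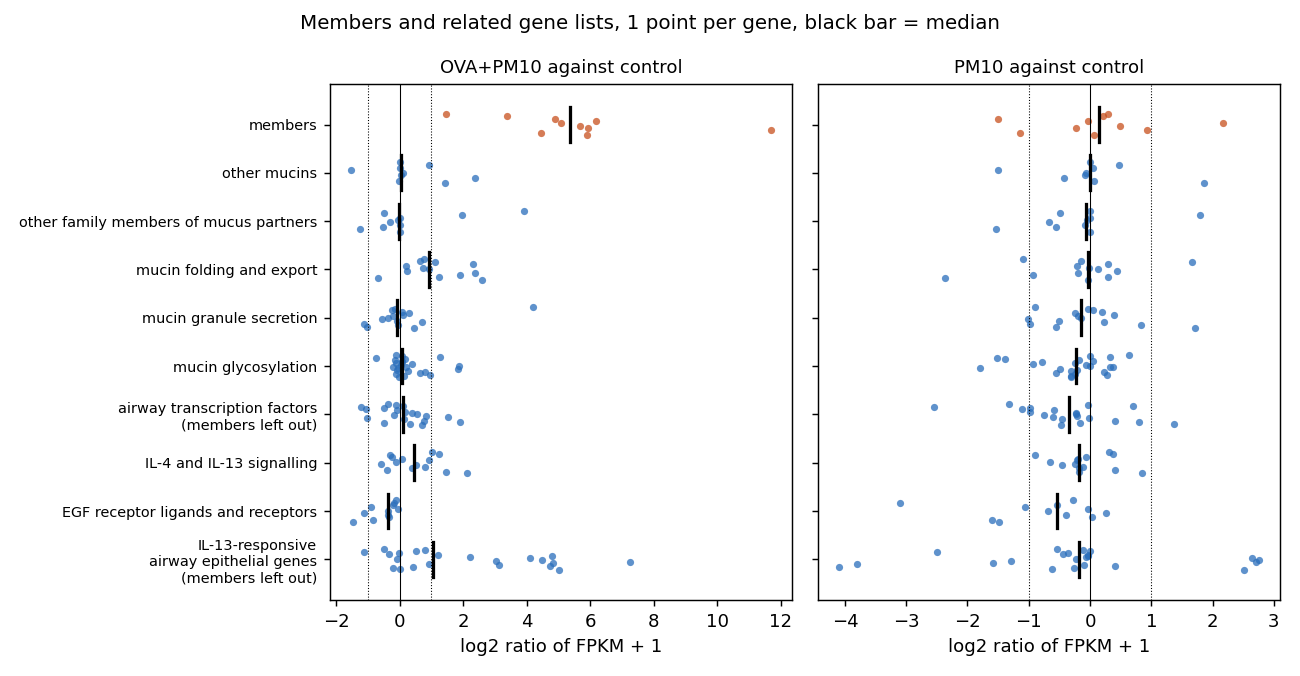
Log2 ratio of FPKM + 1 for each of the 10 genes (orange) and for related gene lists (blue), 1 point per gene with the median as a black bar, for OVA+PM10 against control and PM10 against control; both panels share the control library, their axes differ in range, and dotted lines mark 2-fold. The medians of the lists lie between -0.36 and 1.07 in the left panel, against 5.38 for the 10 genes.

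Markers of other cell types were summed in each library. Counts of markers stand beside the shares over all genes given above for each comparison. Epithelial cells as a whole differed less than the 10 genes: over 15 markers the sums were 1390, 1220 and 757 FPKM in the OVA+PM10, PM10 and control libraries, and 6 of the 15 were higher with OVA+PM10 than in control by the same rule. With the libraries scaled to these markers, 10 of 10 genes with OVA+PM10 exceeded control by 2-fold or more, at a median of 4.75 on the log2 scale. Of all 13780 genes tested on that scale, 385 were higher and 4147 lower than in control. Against PM10, 9 of 10 genes were higher on that scale, where Foxa3 had 0.73, with 613 higher and 4193 lower of all 13233 tested. Of 12 ciliated cell markers 10 were higher with OVA+PM10 than in control and 6 higher with OVA+PM10 than with PM10. Their sums were 1248, 1105 and 651 FPKM in the OVA+PM10, PM10 and control libraries. With PM10, 4 were higher than in control and 0 lower by the rule, at a median log2 ratio of 0.17. Some lay below control, among them Hydin (0.318 FPKM with PM10, 1.17 FPKM in control) and Ccdc40 (1.41 FPKM with PM10, 2.50 FPKM in control). Alveolar type 1 markers lay the other way, 7 of 9 being lower with OVA+PM10 than in control and 7 of 9 lower than with PM10 (sums 1176, 3313 and 2711 FPKM in the OVA+PM10, PM10 and control libraries). Of 10 alveolar type 2 markers 1 was higher and 1 lower with OVA+PM10 than in control. Of 15 club and secretory markers 7 were higher and 2 lower with OVA+PM10 than in control. The higher ones included Bpifb1 (380 FPKM with OVA+PM10, 32.1 FPKM in control) and Scgb3a1 (1420 FPKM with OVA+PM10, 307 FPKM in control). The lower ones were Bpifa1 (18.7 FPKM with OVA+PM10, 283 FPKM in control) and Krt15 (0.817 FPKM with OVA+PM10, 83.9 FPKM in control). Krt15 was also on the list of basal cell markers. Of 9 eosinophil markers 6 were higher with OVA+PM10 than in control (sums 826 FPKM with OVA+PM10, 313 FPKM with PM10, 228 FPKM in control). Most of the PM10 sum came from Ear2 (230 FPKM) and Ear1 (74.6 FPKM). Between PM10 and control 7 eosinophil markers were tested, of which 0 were higher with PM10 and 4 lower. What share of the result these cells had was not tested.

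Several of the 10 genes are also abundant in stomach and gut, so markers of those tissues were read. The gastric genes Gkn1, Gkn2, Atp4b and Anxa10 were listed at 0 in all 3 libraries. The 13 gastric markers summed to 51.4 FPKM with OVA+PM10, 20.2 FPKM with PM10 and 13.4 FPKM in control. Most came from Ctse with OVA+PM10 (37.02 FPKM) and in control (8.78 FPKM), while Ghrl led with PM10 (8.61 FPKM, with Ctse at 5.58 FPKM). Only 4 had 1 FPKM or more in the OVA+PM10 or control library, of which 3 were higher with OVA+PM10 and 0 lower. They were Ctse, Ghrl (6.74 FPKM with OVA+PM10, 1.39 FPKM in control) and Pgc (2.96 FPKM with OVA+PM10, 0.037 FPKM in control). The intestinal factors Cdx1, Cdx2 and Atoh1 were at 0 in all libraries, and the list of 12 summed to 10.1, 1.94 and 1.57 FPKM. Guca2a had 8.57 FPKM with OVA+PM10 and 0.126 FPKM in control, and was higher by the rule. Of 13 submucosal gland markers, 9, 8 and 9 were at 0 and Lyz1 (221, 991 and 416 FPKM) carried most of the sum. Squamous and basal cell markers were low with OVA+PM10 (squamous 6.07 FPKM, basal 8.49 FPKM summed) and high in control (squamous 6151 FPKM, basal 382 FPKM).

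**Figure D4:**
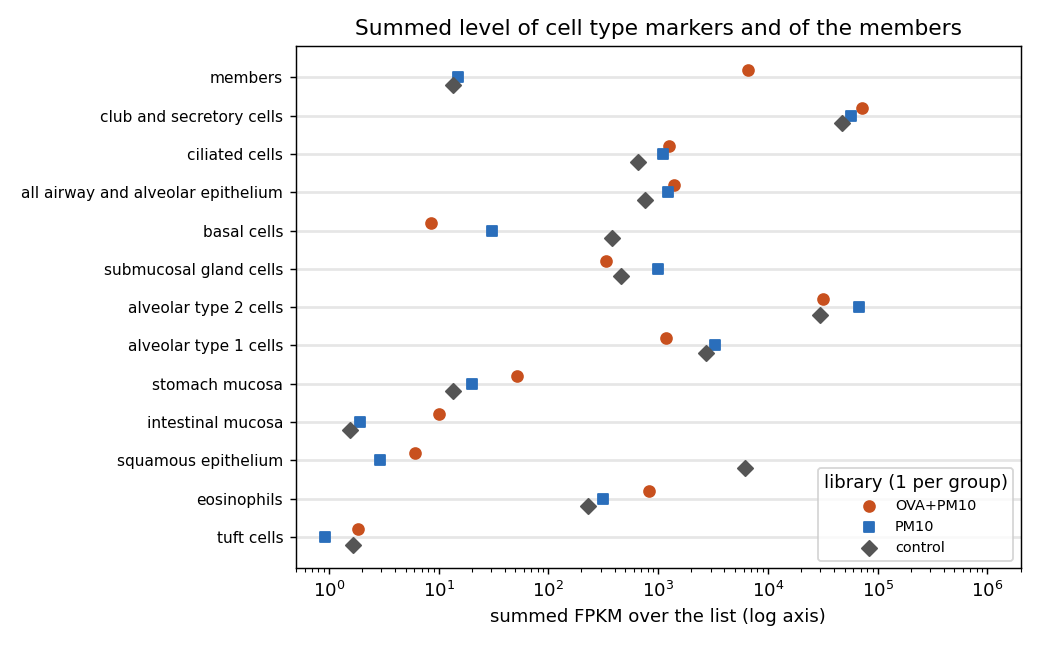
Summed FPKM of the 10 genes and of each marker list in the OVA+PM10, PM10 and control libraries (log axis, 1 library per group). The 10 genes sum to 6585, 15.0 and 13.6 FPKM, while the sums of the club cell and general epithelial lists differ by much less. Scgb1a1 makes up most of the club cell sum, so that larger differences of single club cell markers do not show in it. The squamous list is high in the control library alone.

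The genes whose pattern over the 3 libraries lay nearest to the group were sought among 10027 others with at least 5 FPKM in any library. Likeness was the distance between a gene's pair of log2 ratios to control (PM10 and OVA+PM10) and the members' medians of 0.14 and 5.38. The 8 nearest were Ngp (distance 0.51), Capn9 (0.59), Chia1 (0.70), Jchain (0.97), Mzb1 (1.09), Camp (1.15), Retnlb (1.46) and, slightly farther, Derl3. Of the 10 genes themselves Itln1 (0.45), Muc5ac (0.53) and Fcgbp (0.67) lay nearest to their own medians and Clca1 farthest (6.37). Ngp, a neutrophil granule protein, had 142, 3.78 and 2.10 FPKM in the OVA+PM10, PM10 and control libraries, and Jchain, which joins polymeric antibodies, 766, 48.6 and 32.8 FPKM. With 3 libraries, a like pattern says only that a gene was high in the same one.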

How the data were processed

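RNA was measured by sequencing in 3 lung libraries, grouped by their titles. Per the labels' protocols, Trizol RNA (1.3 µg) went into directional NEBNext Ultra II libraries. Per the submitters' processing notes, TopHat and mm10 were used; counter, annotation and strand setting were not given in the sources used here. The deposited values are FPKM, a unit inferred from the values since no header names it. Log2 ratios of FPKM + 1 were computed from the deposited tables (Python 3.11.15, pandas 2.3.3), without scaling. With 1 library per group no test, SD or left-out replicate was possible, and the depth is known only from the steps between low values, approximately. Lengths, coordinates and transcripts came from GENCODE M21 on GRCm38, matched by symbol for 95.4% of genes; the length trend was a running median over 501 genes. The code was tested on simulated data. A gene of the secretion list is not reported here by name. All 10 genes are named; from each list, up to 6 genes at least 2-fold different between OVA+PM10 and control, and the 8 most alike genes, leaving out predicted ones. Foxa2, Stat6, Il4ra, Ern1, Sec24d, the neighbouring genes and the marker genes named beside a result were chosen after their values were seen. The genes and lists were chosen with earlier results of these data known. Alternatives were other pseudocounts, filters, fold thresholds and scalings, removal of the length trend and, chosen after seeing the data, leaving out Tff1.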

Additional observations from a re-analysis of the deposited data

How the results depend on the processing

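Against control and against PM10, the OVA+PM10 library had 9 or 10 of the 10 genes higher, and none lower, under each alternative run; Foxa3 was the gene lost with 5 FPKM added, with a filter of 5 FPKM, at 4-fold and, against PM10, on the epithelial scale (0.73). Their median log2 ratio ranged from 3.70 to 6.50 against control and from 3.68 to 6.62 against PM10, lowest with 5 FPKM and highest with 0.25 FPKM added. PM10 against control was less stable. The count of higher genes was 1 as reported, 2 with 0.25 FPKM added and at 1.5-fold (Clca1 being the second), and 0 with 5 FPKM added, with a filter of 5 FPKM, with the length trend removed and without Tff1. The count of lower genes was 2 as reported, 3 with equal summed FPKM, and 0 with 5 FPKM added, with a filter of 5 FPKM and at 4-fold. With the length trend removed it was again 2, but these were Agr2 (-2.69) and Tff2 (-1.37), while Muc5b (-0.15) was no longer among them. The median was 0.14 as reported, -0.21 with equal summed FPKM and -0.14 with the length trend removed; apart from what the construction of each alternative shows, the cause was not tested. Equal sums shift the median of all genes to -0.57 (OVA+PM10 against control), 0.48 (OVA+PM10 against PM10) and -1.02 (PM10 against control), and the epithelial scale to -0.70, -0.65 and -0.09. On equal sums all genes split into 617 higher and 3459 lower (1381 and 1204 as reported) for OVA+PM10 against control, 3211 and 321 (1604 and 1220) for OVA+PM10 against PM10, and 249 and 7226 (1869 and 1907) for PM10 against control. On the epithelial scale the splits were 385 and 4147 for OVA+PM10 against control and 613 and 4193 for OVA+PM10 against PM10. On equal sums Tff2 joined Muc5b and Agr2 as lower with PM10 than in control (-1.10). Depth limits PM10 against control most for Muc5ac, Itln1 and Foxa3, with at most about 13.8 reads in either library, and for Agr2, with about 5.06 reads in the PM10 library. No paired analysis was possible because each group had 1 library.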
